A study of Homo sapiens with 2 samples.

Results

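Aquaporins were compared between T47D cells transduced with a lentiviral hairpin against TRPS1 (shTRPS1) and T47D cells transduced with a negative control virus (NC). Each group was 1 array, so no difference below has a replicate check and none was tested. T47D is an established luminal human breast cancer cell line that expresses the oestrogen receptor, and both groups shared the same growth medium and a lentivirus. The labels do not say whether the transduced cells were a pool or a clone, nor how long after transduction RNA was taken. RNA was measured on 1-colour NimbleGen whole human genome arrays and deposited as 1 intensity for each transcript accession, or feature.

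The aquaporins were taken by name from a list of 10 genes, AQP1, AQP2, AQP3, AQP4, AQP5, AQP7, AQP8, AQP9, AQP10 and AQP11, and the list was chosen by the measured shTRPS1 minus NC difference of AQP3 in these same data. Of the 10, 5 genes had a feature with a value, out of 11564 named genes and 28973 features. These were AQP2, AQP3, AQP8, AQP10 and AQP11, each with 1 feature. AQP1, AQP4, AQP5, AQP7 and AQP9 had no named feature among the values used and are not analysed here. Because the difference between the arrays chose AQP3, its size is a description and supports nothing by itself.

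Aquaporins are membrane channels that assemble as tetramers, each subunit with its own pore. Some members pass water alone, whereas the aquaglyceroporins AQP3, AQP7, AQP9 and AQP10 also pass glycerol and other small solutes, and AQP3 and AQP8 are known to pass hydrogen peroxide. AQP3 lies in the basolateral membrane of many epithelia and in keratinocytes, and oestrogen is reported to raise it in oestrogen receptor positive breast cancer cells. AQP2 is the vasopressin-regulated water channel of the kidney collecting duct, AQP8 is found in the gut, liver and pancreas, AQP10 in the small intestine, and AQP11 is an intracellular aquaporin.

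TRPS1, the target of the hairpin, encodes a repressor with a GATA-type zinc finger, so the bases just before the start of the aquaporin genes were searched for GATA motifs. The window was the 250 bases before the RefSeq start (GRCh38.p14), and an entry was found for AQP2, AQP3, AQP8 and AQP10. The sequences of AQP3, the aquaporin that differed, and of AQP2 and AQP10, which hold GATA motifs, are shown 5′ to 3′ on the gene's strand. Capitals mark the GATA motifs, which are AGATAA or AGATAG and, with another first base, TGATAA or TGATAG, searched on both strands, and TATAAA, searched on the gene's strand.
AQP3 (chr9:33447594-33447843, minus strand): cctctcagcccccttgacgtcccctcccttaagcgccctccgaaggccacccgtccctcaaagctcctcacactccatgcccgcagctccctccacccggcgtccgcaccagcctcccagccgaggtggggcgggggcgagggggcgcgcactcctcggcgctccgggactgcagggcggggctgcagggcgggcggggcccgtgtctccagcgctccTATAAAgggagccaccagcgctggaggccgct
AQP2 (chr12:49950487-49950736, plus strand): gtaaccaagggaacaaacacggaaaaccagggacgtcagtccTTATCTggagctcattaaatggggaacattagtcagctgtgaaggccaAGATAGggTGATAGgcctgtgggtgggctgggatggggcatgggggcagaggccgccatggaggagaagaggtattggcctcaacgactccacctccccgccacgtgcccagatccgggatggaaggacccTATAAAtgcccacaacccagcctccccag
AQP10 (chr1:154320843-154321092, plus strand): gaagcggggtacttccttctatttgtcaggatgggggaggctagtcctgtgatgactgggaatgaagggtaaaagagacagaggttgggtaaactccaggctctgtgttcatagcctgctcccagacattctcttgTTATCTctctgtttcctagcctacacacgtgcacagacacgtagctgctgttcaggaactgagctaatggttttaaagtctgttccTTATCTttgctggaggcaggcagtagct

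The AQP3 window held 0 of the GATA motifs, AQP2 held 3, AQP10 held 2 and AQP8 held 0, and none of the marked motifs overlapped another. At least 1 GATA motif was present in 22.3% of the 35116 RefSeq promoter windows of the same length. TATAAA occurred in 6.8% of the windows, and in AQP3 it began 32 bases before the start, against 29 bases in AQP2. AQP3 also held 4 matches of the GC box letters GGGCGG, of which 2 overlapped each other, and 42.6% of all windows held at least 1 on either strand. The GC content of the window was 73.6% in AQP3, 57.6% in AQP2, 53.6% in AQP8 and 48.8% in AQP10. The letters GGTCA are a half-site of the oestrogen response element and not the whole element. Searched on both strands, they had no match in any of these 4 windows and at least 1 in 32.6% of all windows. A match is a description of the letters and not a bound site, and a window without a match says nothing about the factor.

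AQP3 had an intensity of 804 in the shTRPS1 array and 3975 in the NC array. The shTRPS1 value was lower by 79.8%, a log2 difference of -2.31 (shTRPS1 minus NC), which is a 4.95-fold difference. Both values stood above the background level of their array, taken as the 95th percentile of 60 olfactory receptor features, which was 325 in the shTRPS1 array and 397 in the NC array. AQP3 was therefore measured on both arrays, and the size of its difference is not a bound. In bulk RNA, fewer cells with AQP3 and less AQP3 RNA per cell cannot be told apart. The feature carries accession NM_004925. No other feature was assigned to AQP3, so a further probe set was not there to set beside it.

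The spread between genes of like signal gives a scale for the AQP3 difference. Among the 500 genes above background with the nearest mean log2 intensity, the log2 differences had a median of 0.04 and an SD of 0.43, and they ran from -1.86 to 1.70. All 500 were less negative than AQP3. Of the 5829 genes with both arrays above background, 2 differed downward by as much as AQP3, the other one being SUSD2, a sushi domain membrane protein. That set leaves out genes that were dim on the shTRPS1 array. It holds 77 genes lower by 2-fold or more, against 165 among the 6949 genes above background on at least 1 array. The spreads given here are between genes on 1 pair of arrays and not between replicates. AQP3 was chosen for this same difference, so its rank is a description and supports nothing.

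**Figure D1:**
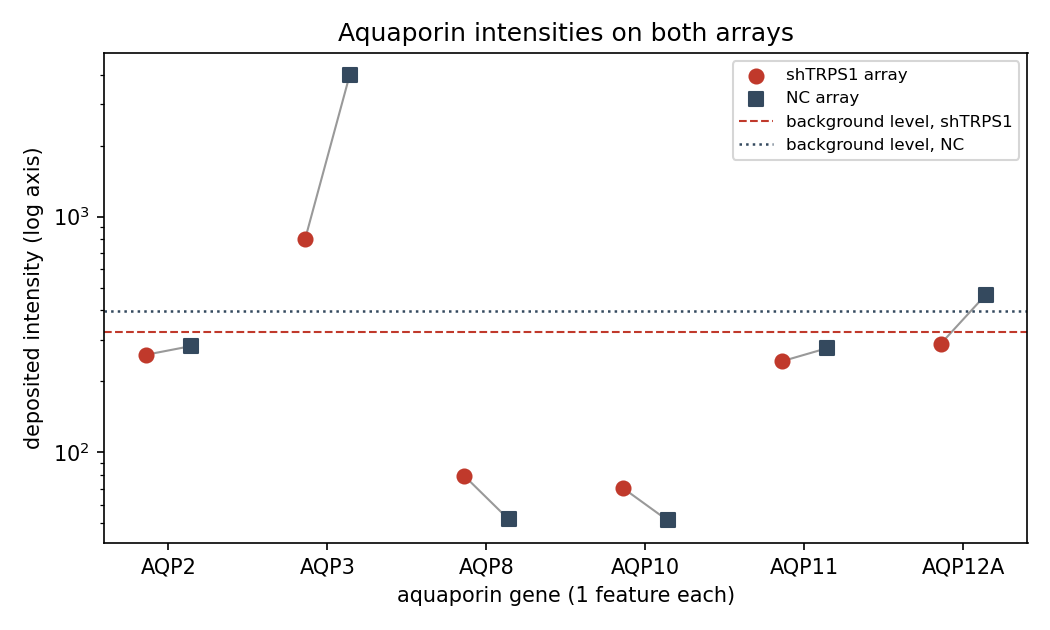
Deposited intensity (log axis) of each aquaporin with a feature in the shTRPS1 array (red circles, left of each pair) and the NC array (dark squares, right), with each array's background level as a horizontal line. AQP3 stands above both lines at 804 in the shTRPS1 array and 3975 in the NC array, AQP12A is above the line in the NC array alone, and AQP2, AQP8, AQP10 and AQP11 lie under the lines on both arrays.

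The other 4 aquaporins were not above background on either array. AQP2 had 260 in the shTRPS1 array and 282 in the NC array, a log2 difference of -0.12. AQP11 had 244 in the shTRPS1 array and 276 in the NC array, a log2 difference of -0.18. These features were dim on both arrays and differed little between them. AQP2 overlaps the antisense gene AQP5-AS1 in the RefSeq table, and RNA of the 2 genes may not be separated by this feature.

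AQP8 had 79.7 in the shTRPS1 array and 52.0 in the NC array, and AQP10 had 70.5 in the shTRPS1 array and 51.5 in the NC array. Their log2 differences were 0.62 and 0.45, both upward. All of these intensities were near 50, under which neither array has a deposited value, and no fold is read from them. Differences in AQP2, AQP8, AQP10 and AQP11 were not detectable at signals under the background level.

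Of the 5 measured aquaporins, 3 were lower and 2 higher in the shTRPS1 array, and 1, AQP3, was lower by 2-fold or more and above background. Over all genes above background on at least 1 array, the share lower by 2-fold or more was 2.37% and the share higher by as much was 3.78%. With both arrays above background the share lower was 1.32%. Because the list was made for AQP3, nothing is read from that count. The median log2 difference was -0.12 over the 5 aquaporins and 0.17 over the 4 without AQP3, against 0.05 over all 11564 genes.

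Of the family members outside the list (MIP, AQP6, AQP12A and AQP12B), 1 had a feature. AQP12A, a pancreatic intracellular aquaporin, had 290 in the shTRPS1 array, which was not above background, and 465 in the NC array, which was. With the dim value set to the background level, the shTRPS1 intensity was lower by at least 1.43-fold, and its measured log2 difference was -0.68. Among 500 genes of like signal, 49 had a more negative difference than AQP12A. AQP12B is a near-identical copy, so the feature may detect both.

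**Figure D2:**
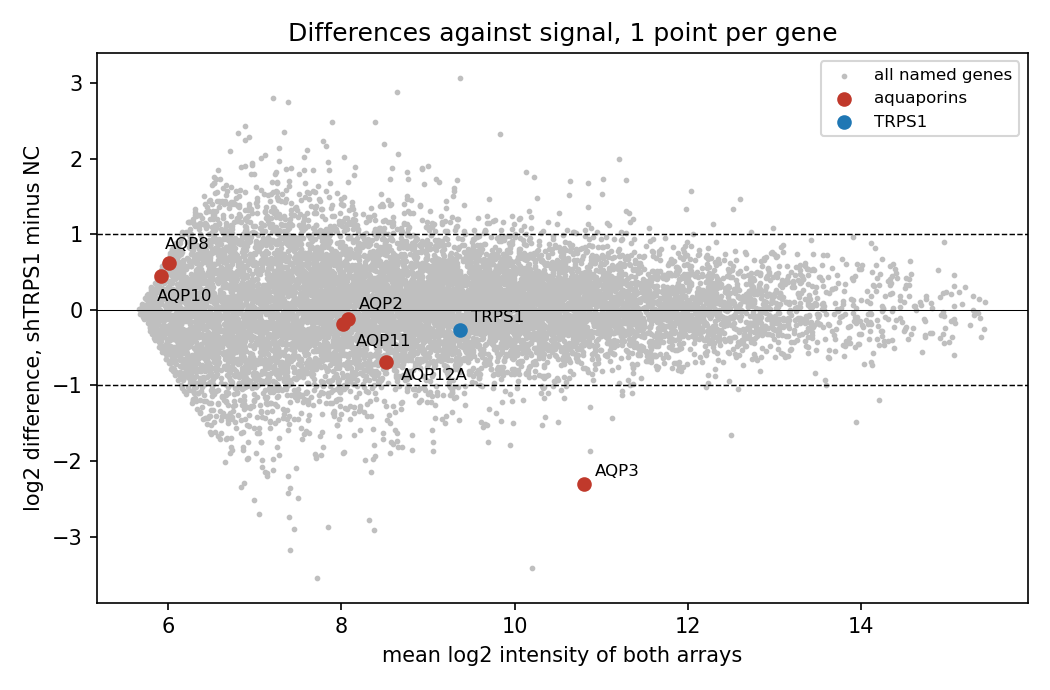
Log2 difference (shTRPS1 minus NC) against the mean log2 intensity of both arrays, with 1 grey point per named gene, the aquaporins in red, TRPS1 in blue, and dashed lines at a 2-fold difference. AQP3, at -2.31, lies below the 500 genes of nearest signal, TRPS1 lies at -0.27 within the spread, and AQP8 and AQP10 sit at the dim end near the edge set by the lowest deposited values.

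The identity of the cells and the target of the hairpin were checked on the same arrays. All 8 luminal epithelial markers (KRT8, KRT18, KRT19, EPCAM, CDH1, ESR1, GATA3 and FOXA1) were above background on both arrays. Of these 0 differed by 2-fold, near the 2.37% lower and 3.78% higher of all genes above background. ESR1 had 582 in the shTRPS1 array and 541 in the NC array. TRPS1 had 603 in the shTRPS1 array and 726 in the NC array, a log2 difference of -0.27, and 133 of 500 genes of like signal were lower still. The TRPS1 difference was small, downward and within the spread of those genes. With 1 array a group, these values do not show whether TRPS1 RNA was knocked down. Of 4 basal epithelial markers 3 were measured, with a summed intensity of 16789 in the shTRPS1 array and 9606 in the NC array. All 3 were above background on both arrays. KRT14 (3.54-fold) and KRT17 (2.76-fold) were higher in the shTRPS1 array. KRT5 had 4381 in the shTRPS1 array and 5273 in the NC array, a log2 difference of -0.27, and TP63 had no value. KRT17 had 3735 in the NC array. Of 5 fibroblast markers 1 was measured, COL1A1, with 773 in the shTRPS1 array and 363 in the NC array, of which the NC value was not above background. Their part in the AQP3 difference was not tested. The single measured marker of adipocytes (LEP), endothelium (CDH5), red cells (HBA1) and leukocytes (CD14) was not above background on either array. Of the 2 measured hepatocyte markers APOA1 was not above background on either array, whereas SERPINA1, which luminal breast cells can also express, had 742 in the shTRPS1 array and 999 in the NC array.

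The genes around AQP3 on chromosome 9 were set beside it, a choice made after the AQP3 values were known. They were the nearest 4 measured protein-coding genes on each side in the RefSeq order. NOL6, a nucleolar protein gene directly next to AQP3, had 482 in the shTRPS1 array and 431 in the NC array, a log2 difference of 0.16. On the other side AQP7 lies next to AQP3 and had no value. CHMP5 on that side (0.43) and UBAP2 beyond NOL6 (0.67) were above background on both arrays and had positive log2 differences. NFX1 and BAG1 were above background in the shTRPS1 array alone and were at least 1.27-fold and 1.23-fold higher there. UBE2R2 and DCAF12 were not above background on either array. SPINK4, a protease inhibitor gene known from goblet cells, was the only one of the 8 neighbours lower by 2-fold or more, against 2.37% of all genes above background, with 430 in the shTRPS1 array and 901 in the NC array (2.09-fold, log2 difference -1.07), and it came under 2-fold, at -0.99, when 50 was added before taking log2. The median measured log2 difference over the 8 neighbours, dim ones included, was 0.48, against 0.05 over all genes.

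**Figure D3:**
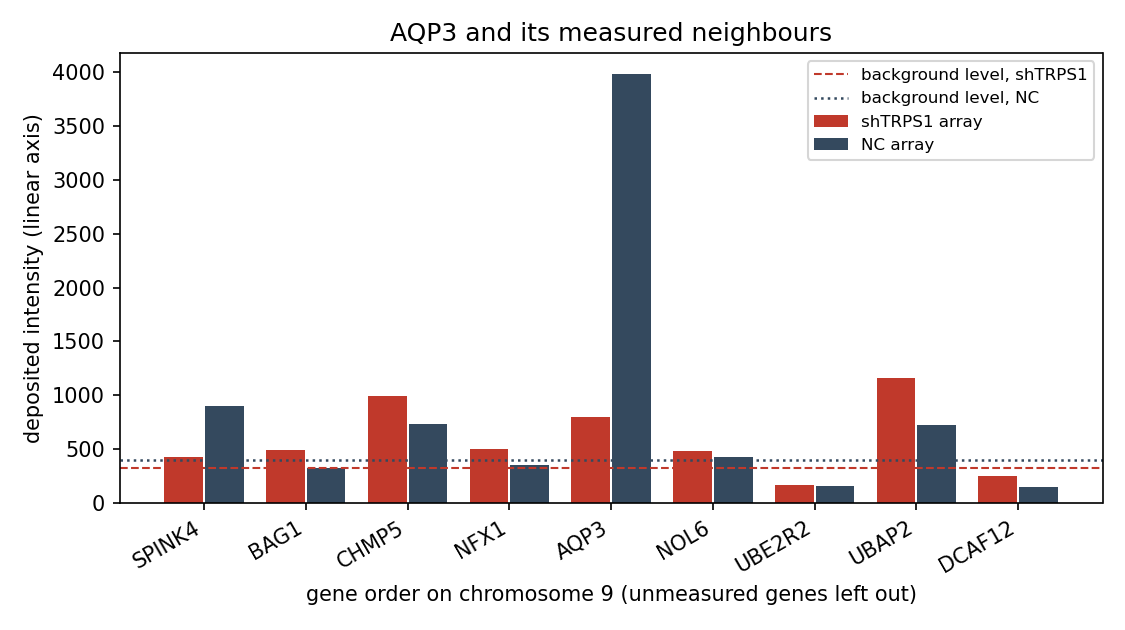
Deposited intensity (linear axis from 0) of AQP3 and the nearest 4 measured protein-coding genes on each side along chromosome 9, with the shTRPS1 array in red on the left of each pair, the NC array in dark on the right, and background levels as lines. AQP3 (804 in the shTRPS1 array, 3975 in the NC array) and SPINK4 (430 in the shTRPS1 array, 901 in the NC array) are lower in the shTRPS1 array. CHMP5, NOL6 and UBAP2 are above both lines and higher there by less than 2-fold, and NFX1, BAG1, UBE2R2 and DCAF12 are dim on at least 1 array.

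Genes with the values most like those of AQP3 were the 6 with the smallest Euclidean distance over the log2 values of the 2 arrays, both above background. Likeness over 2 arrays says only that a feature has a similar intensity on each. The nearest was ALDOC, a glycolytic aldolase, at a distance of 0.33, with 977 in the shTRPS1 array and 3554 in the NC array, which is 3.64-fold lower. LAGE3, a subunit of the tRNA-modifying KEOPS complex, TMEM160, NOL3, an inhibitor of apoptosis, ODAD1, a docking protein of ciliary dynein, and KRTAP12-4, a hair keratin-associated protein, followed at distances of 0.72 to 0.89. They were between 2.24-fold (ODAD1) and 2.87-fold (KRTAP12-4) lower in the shTRPS1 array.

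Genes of glycerol and triglyceride metabolism handle the solute that AQP3 passes. Of 34 listed, 25 were measured. Of the 16 above background on at least 1 array, 0 differed by 2-fold in either direction, against 2.37% lower and 3.78% higher over all genes above background, so that few calls or none would be usual in 16 genes. GPAT3 and LPIN1, enzymes of glycerolipid synthesis chosen after their values were seen, were over 2-fold apart but dim on both arrays, and no fold is read from them. Over all 25, dim ones included, the log2 differences were negative in 16 and positive in 9, with a median of -0.21 against 0.05 over all genes. Over the 16 above background the median was -0.20, against 0.08 over all genes above background, of which 56.9% were positive. Among members above background on both arrays the differences ran from -0.77 (PNPLA3) to 0.58 (LPIN3). DGAT1, which makes triglyceride, had 1811 in the shTRPS1 array and 2237 in the NC array. PNPLA2, the lipase that starts triglyceride breakdown, had 2115 in the shTRPS1 array and 2358 in the NC array. PLIN3, a lipid droplet coat protein, had 2642 in the shTRPS1 array and 3005 in the NC array. All 3 were slightly lower in the shTRPS1 array, by log2 differences of -0.30, -0.16 and -0.19. GK, the kinase that traps glycerol in the cell, chosen after its values were seen, was not above background, with 74.2 in the shTRPS1 array and 116 in the NC array. PLD2, a phospholipase reported to work with AQP3 in keratinocytes and also chosen after its values were seen, had 679 in the shTRPS1 array and 783 in the NC array.

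NADPH oxidases make the superoxide that is converted to hydrogen peroxide, another solute of AQP3. Of 17 genes listed for these enzymes and their partners, 10 were measured. CYBB, NOX5 and DUOX1, the measured genes of the enzymes themselves, were not above background on either array. CYBA, RAC1 and RAC2 were above it on both arrays, and NOXO1 in the shTRPS1 array alone. Of the 4 above background 0 were 2-fold apart, which the shares of 2.37% lower and 3.78% higher over all genes above background would usually give. DUOXA1, a maturation factor of a dual oxidase chosen after its values were seen, was over 2-fold apart but dim on both arrays. CYBA, the shared membrane subunit, had 5672 in the shTRPS1 array and 7232 in the NC array, a log2 difference of -0.35. The GTPases RAC1 and RAC2, which activate the oxidase, had log2 differences of 0.29 and 0.22. The list median was 0.06 against 0.05 over all genes, and 0.26 over the 4 genes above background.

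Genes of cell volume control and the osmotic response gave 3 calls. Of 30 listed, 22 were measured and 13 were above background, of which 1 was higher and 2 were lower by 2-fold or more, against 3.78% and 2.37% of all genes above background. KCNN4, a calcium-activated potassium channel, had 156 in the shTRPS1 array and 617 in the NC array and was at least 1.90-fold lower by the background bound. TRPV4, a cation channel opened by cell swelling, had 166 in the shTRPS1 array and 451 in the NC array and was at least 1.39-fold lower. WNK4, a kinase that controls chloride cotransporters, had 520 in the shTRPS1 array and 204 in the NC array and was at least 1.31-fold higher. In each of these 3 genes 1 array was not above background, so the bounds are under 2-fold. The 3 brightest members differed little. SLC12A7, a potassium-chloride cotransporter, had a log2 difference of 0.24. AKR1B1, the sorbitol-making aldose reductase, had 0.17, and LRRC8E, a volume-regulated anion channel subunit, -0.02. Larger differences, under 2-fold, were seen in WNK1 (0.96), ANO6 (0.65) and OXSR1 (0.63), chosen after their values were seen. Of the 8 members above background on both arrays, LRRC8E alone was lower in the shTRPS1 array. Over all genes above background on at least 1 array, 56.9% had a positive difference. The list median was 0.16 against 0.05 over all genes. Over the 13 members above background it was 0.17, against 0.08 over all genes above background.

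Genes that move or anchor aquaporins in the membrane gave 0 calls among 20 measured of 26 listed, of which 10 were above background. With 2.37% of all genes above background called lower and 3.78% higher, 0 of 10 is near that share. EZR, the cytoskeletal linker ezrin, had 5364 in the shTRPS1 array and 4336 in the NC array, a log2 difference of 0.31. HSPA8, a chaperone that binds AQP2, had a log2 difference of -0.39, and DAG1, dystroglycan, 0.11. PRKAR2A (lower) and DMD (higher), chosen after their values were seen, were over 2-fold apart but dim on both arrays. No fold is read from them. The list median was 0.14 against 0.05 over all genes.

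Receptors and factors reported to act on AQP3 also gave 0 calls. Of 12 listed, 7 were measured and 6 were above background. With 2.37% of all genes above background called lower and 3.78% higher, 0 of 6 is near that share. The median log2 difference was 0.38 against 0.05 over all genes. Over the 6 above background it was 0.24, against 0.08 over all genes above background. RXRA, the retinoid X receptor, had 1749 in the shTRPS1 array and 2614 in the NC array, a log2 difference of -0.58. RXRB and RARA, further retinoid receptors, had differences of 0.61 and 0.49 in the other direction. ESR1 had a difference of 0.11. The gene not above background was TP73, a p53 family factor chosen after its values were seen, with 313 in the shTRPS1 array and 86.4 in the NC array.

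**Figure D4:**
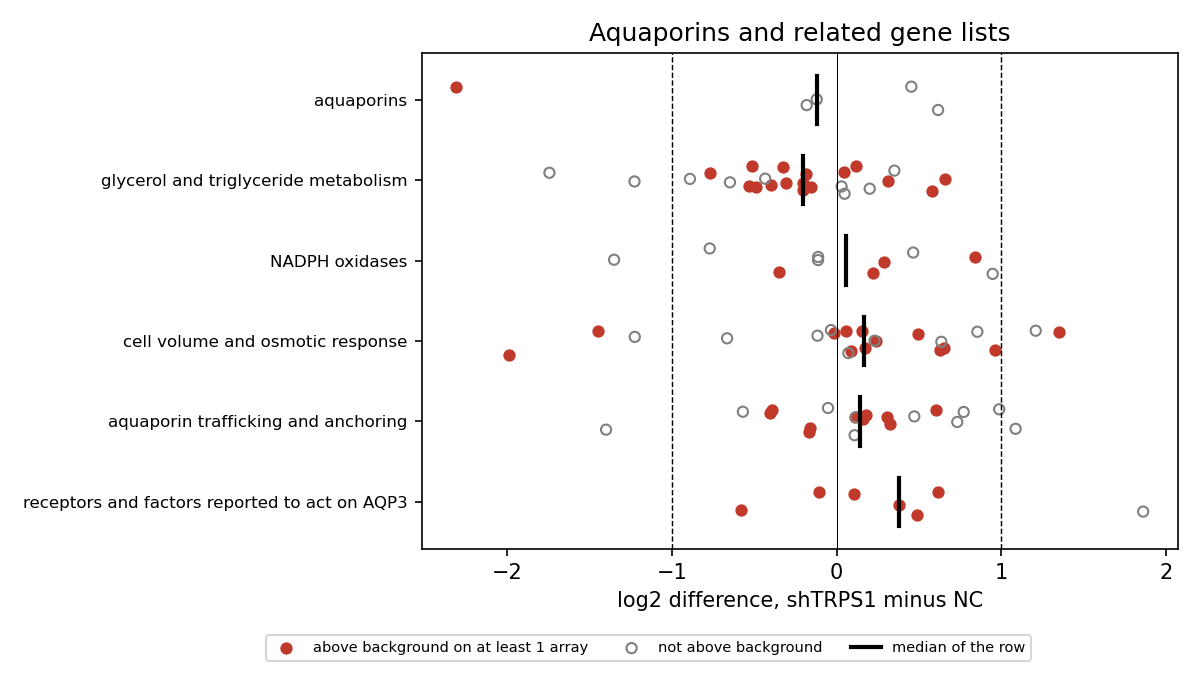
Log2 difference (shTRPS1 minus NC) of each measured gene, in rows for the aquaporins and 5 related lists, with filled points above background on at least 1 array, open points not above background, a bar at each row's median and dashed lines at 2-fold. The AQP3 point at -2.31 is the only filled aquaporin, and beyond the dashed lines the filled points of the lists are KCNN4, TRPV4 and WNK4.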

How the data were processed

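Linear intensities deposited by the authors, 1 per transcript accession and array, were the starting values. The submitters' processing notes name RMA. Its version and steps, and the array's genome build, are not given here. No deposited intensity was under 50. Log2 of the deposited intensities was taken, and differences are shTRPS1 minus NC. All 12598 named features were named by RefSeq accession (GRCh38.p14), and a gene was represented by its brightest feature. The background level and the 2-fold rule are those given in the report, and a dim value was set to its array's background level for an "at least" fold. A second table has 8 sample columns whose names match no label. Its values were left out and its accessions used for 1 alternative. The design named no test, since each group has 1 array, and precision is limited by this.

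The members, gene lists and comparisons were chosen with earlier results of these data known. Named genes were every aquaporin with a feature, up to 4 called members in each direction and the 3 brightest members of each list, the 6 genes nearest AQP3, and TRPS1, ESR1, GATA3 and FOXA1. GATA3 and FOXA1 had log2 differences of 0.18 and 0.07. Alternatives were 3 rescalings, a pseudocount of 50, the mean over features, other backgrounds, thresholds of 1.5-fold and 3-fold, and the accessions of the second table. Calls were tested on simulated data. Analyses used Python 3.11.15, numpy 2.4.6, pandas 2.3.3, statsmodels 0.14.6 and matplotlib 3.10.9.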

Additional observations from a re-analysis of the deposited data

How the results depend on the processing

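The AQP3 log2 difference lay between -2.37 and -2.24 under median-centring, quantile normalization, lowess correction (span 0.4) and a pseudocount of 50. The number of aquaporins called was 1 under these settings and under thresholds of 1.5-fold and 3-fold. It was also 1 with background at the highest or the 75th percentile of the olfactory receptor features, and with no background filter. The mean over features could change neither result, since each measured aquaporin had 1 feature. AQP3 is not among the accessions of the second table, so that alternative could not be run for it, and the median over the 3 aquaporins that are there was -0.12. Restricting medians to genes above background left AQP3 alone among the aquaporins, at -2.31. With the genes dim on both arrays left out, the median was 0.26 over 4 NADPH oxidase genes and 0.24 over 6 receptors and factors. The other 34 of 36 alternative medians of the related lists moved by less than 0.1. No paired analysis was possible because each group has 1 array. Signal over background limits AQP2, AQP8, AQP10 and AQP11, and the single array per group limits every value.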

Other observations

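Genes beside the other aquaporins were read in the same way as those beside AQP3, also after the values were known. Among the 8 measured genes nearest AQP2, ASIC1, an acid-sensing sodium channel, had 735 in the shTRPS1 array and 200 in the NC array and was at least 1.85-fold higher, the only one of the 8 called. Among the 8 nearest AQP10, IL6R, the interleukin-6 receptor, had 185 in the shTRPS1 array and 467 in the NC array and was at least 1.43-fold lower, again the only one called. The 8 genes nearest AQP8, AQP11 and AQP12A gave 0 calls, with median log2 differences of 0.23, -0.24 and -0.37, of which those near AQP11 and AQP12A included 3 and 5 genes not above background. Over all genes above background 3.78% were called higher and 2.37% lower, so 0 or 1 call among 8 genes is near that share. Below background on both arrays, SLC5A3, the myo-inositol transporter of the osmotic response, had 111 in the shTRPS1 array and 260 in the NC array, and SGK1, a kinase induced by cell shrinkage, had 213 in the shTRPS1 array and 92.2 in the NC array, and no fold is read from either.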
